A study of Mus musculus with 12 samples.

Results

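The ligands and receptors of the vascular endothelial growth factor (VEGF) and angiopoietin systems were followed at the RNA level in the lungs of *miR-30a*-/- mice. The 10 genes were taken by symbol from a table of 55487 genes, with earlier results of these data known: the ligands *Vegfa*, *Vegfb*, *Vegfc*, *Angpt1* and *Angpt2*, and the receptors *Flt1*, *Kdr*, *Flt4*, *Tek* and *Tie1*. All 10 were among the 45828 genes that passed the expression filter of edgeR. The study asked how neonatal oxygen injury changes lung gene expression in males and females when *miR-30a* is missing. Whole lungs of 12 mice were sequenced, with 3 lungs in each of 4 groups of sex and exposure. All 12 mice were on the C57BL/6J background, were homozygous for a CRISPR/Cas9 deletion of *miR-30a* and were harvested on postnatal day (PND) 21. The hyperoxia groups had breathed 95% oxygen from PND 1 to PND 5 and had then recovered in room air, and the control groups were kept in room air throughout. No mouse with an intact *miR-30a* was analysed here, so every difference below is one of exposure or sex within the knockout. Animals are named by sex and by the number in their label, which starts anew in each group.

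VEGF-A binds FLT1 (VEGFR1) and KDR (VEGFR2), and KDR carries most of its mitogenic signal in endothelial cells, whereas FLT1 binds the ligand tightly and signals weakly. VEGF-B binds FLT1, and VEGF-C binds FLT4 (VEGFR3), the receptor of lymphatic endothelium. Angiopoietin-1, made largely by perivascular cells, activates TEK (TIE2) and stabilises vessels, angiopoietin-2 acts against it in many settings, and TIE1 is an orphan receptor that pairs with TEK. In the lung *Vegfa* is made mostly by the alveolar type 1 epithelium, and its loss in early life arrests both capillary growth and alveolar formation.

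The missing microRNA is shown first because it defines the animals, beside 3 further mouse microRNAs with the same seed (bases 2 to 8, in capitals). The sequences and positions are those of RefSeq, in build GRCm38.p6.

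miR-30a-5p: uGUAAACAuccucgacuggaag
miR-30c-5p: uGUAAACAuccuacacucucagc
miR-30e-5p: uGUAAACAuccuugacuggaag
miR-384-5p: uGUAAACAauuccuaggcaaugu

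The family also holds miR-30b and miR-30d. miR-30a-5p lies at chr1:23272274-23272295 on the forward strand. The letters that pair with the seed, TGTTTAC, were looked for in the annotated 3′ untranslated region of each of the 10 genes. They occurred once in *Flt1* and once in *Vegfc*, at the sites below (pairing letters in capitals), and in none of the other 8 genes.

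*Flt1*: cttctgttgtcTGTTTACcatc
*Vegfc*: ccacagcaagaTGTTTACtttt

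The *Flt1* site is at chr5:147563587-147563608 on the reverse strand and the *Vegfc* site at chr8:54186690-54186711 on the forward strand, both in build GRCm38. Of 20397 tested genes with an annotated 3′ untranslated region, 13.9% held the same letters, and of the 9940 genes whose region had at least 1 kilobase 23.7% did. A match is a run of letters and was not tested for binding.

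Between 8763033 and 16741694 reads were counted on genes in each lung. Levels are given as CPM, the counts of a gene scaled to a common library size by upper-quartile normalization, where 3 counts were worth 0.191 to 0.327 CPM. Sex matched the labels in all 12: *Xist* counts were 8834 to 27296 for females but 148 to 210 for males, and *Ddx3y* was at 0 in each female. *Mir30a* had 0 counts in all 12 lungs, which measures nothing in a library of longer RNAs. The lungs differed in how many reads fell on olfactory and vomeronasal receptor genes, which took 0.435% to 1.003% of counts, called the receptor share below. The single gene *Gm10800* took 6.04% to 23.85%. Whether these reads are stray or come from genes in use was not tested. The study names the olfactory receptor gene *Olfr78* among the genes raised in the knockout female lung after hyperoxia. The receptor share was 0.435% to 0.786% in room air females, 0.710% to 0.899% in females after hyperoxia, 0.681% to 0.955% in room air males and 0.547% to 1.003% in males after hyperoxia. All 14 endothelial, all 7 alveolar type 1 and all 8 alveolar type 2 marker genes examined passed the expression filter.

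*Vegfa* was the member with the highest level per length, and *Vegfc* was the lowest. Per kilobase of exon, the means over 12 lungs were 85.8 ± 23.5 CPM (SD, n = 12) for *Vegfa*, 44.6 ± 11.5 for *Tek*, 30.7 ± 8.45 for *Kdr*, 29.6 ± 6.50 for *Tie1* and 13.6 ± 2.90 for *Flt1*. They were 12.7 ± 2.70 CPM per kilobase for *Angpt1*, 9.92 ± 1.23 for *Flt4*, 8.41 ± 1.06 for *Vegfb*, 6.37 ± 0.925 for *Angpt2* and 4.69 ± 0.727 for *Vegfc*. Of the 9 neighbouring pairs in this order, 6 held in 12 of 12 lungs. *Kdr* and *Tie1* could not be ordered, since *Kdr* was higher in 6 of 12 lungs. *Flt1* stood above *Angpt1* in 9 of 12 lungs and *Flt4* above *Vegfb* in 11 of 12. The levels may include stray reads. If the reads on receptor genes were all stray, their density would make part of each member's counts background. That part would be 1.36% of the *Vegfa* counts, 14.2% of the *Vegfb* counts, 18.7% of the *Angpt2* counts and 25.3% of the *Vegfc* counts. Of the 10 genes, *Angpt1* alone shared exon sequence with another annotated gene, *Gm17473* on the opposite strand, over 14.2% of its exon length. The strand setting of the counting is not given in the sources used here, so reads of this stretch cannot be assigned.

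**Figure D1:**
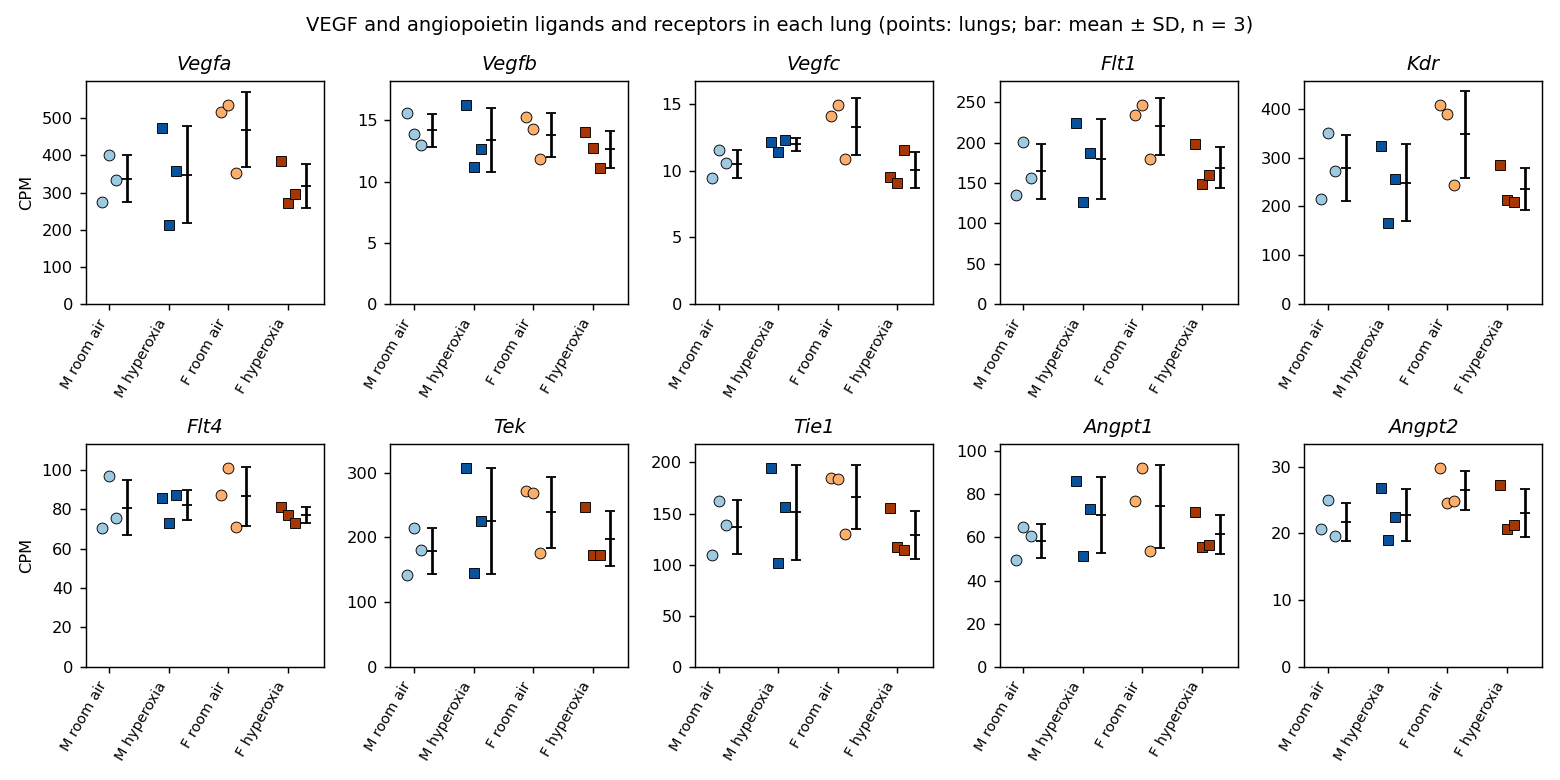
Level of each member in each lung, as CPM on the vertical axis, in the 4 groups of sex and exposure; points are lungs and bars the mean ± SD of 3 lungs. The room air females hold the highest lung for *Vegfa*, *Vegfc*, *Flt1*, *Kdr*, *Flt4*, *Angpt1* and *Angpt2*, and each member's hyperoxia lungs overlap its room air lungs in both sexes.

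No member passed the threshold for a change with hyperoxia, in either sex or with the sexes combined. The threshold joined a fold change over 1.5 with a p under 0.05 from edgeR's quasi-likelihood test, adjusted over all 45828 genes by the Benjamini-Hochberg method. In females 0 of 10 members were called, where 0.00218% of all genes were, and in males 0 of 10, where 0% of all genes were. The female share was 1 gene. Without room air female 6 it was 206 of 46780 genes in females, with 0 members called. With the 2 sexes weighted equally 0 of 10 were called, against 0.0415% of all genes. DESeq2 called 0 of 10 members in each of these 3 comparisons. Of the genes it tested, it called 94 of 14871 in females, 0 of 52666 in males and 40 of 25082 with the sexes combined. At an unadjusted p under 0.05 the counts were 1 of 10 by edgeR and 4 of 10 by DESeq2 in females, 0 by either tool in males, and 0 by edgeR and 1 by DESeq2 with the sexes combined. By edgeR the shares of all genes at this p were 5.28% lower and 7.32% higher in females, 1.8% lower and 0.899% higher in males, and 2.52% lower and 2.67% higher with the sexes combined. By DESeq2, over those of the same genes to which it gave a p, 12.1% of genes were at this p in females, 2.01% in males and 3.89% with the sexes combined.

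The female estimates lay below 0, and the sign of the male median rested on 1 lung. In females all 10 members were lower after hyperoxia, with a median log2 fold change of -0.32, while the median of all genes tested was 0.11. In males 8 of 10 were higher, with a median of 0.10 and a median of all genes of -0.011. Without hyperoxia male 1 the male median was -0.059 and 3 of 10 were higher, *Vegfc*, *Tek* and *Angpt1*, and without room air male 1 the median was 0.0095. Marker genes of other lung cells were lower in females as well, with medians of -0.37 for the endothelial, -0.46 for the alveolar type 1 and -0.54 for the alveolar type 2 lists, and of 0.080, 0.069 and 0.18 in males. Whether the amount of these cells or their RNA moved the members was not tested. In these bulk samples fewer cells of a type and less RNA per cell cannot be told apart.

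Among the VEGF ligands, *Vegfa* (chr17:46016993-46032369, reverse strand) had the lowest female estimate. In room air it stood at 517, 536 and 353 CPM in females 2, 5 and 6 and at 274, 401 and 335 CPM in males 1, 4 and 5. After hyperoxia it stood at 385, 272 and 295 CPM in females 2, 4 and 5 and at 474, 214 and 357 CPM in males 1, 2 and 3. Room air females 2 and 5 were thus higher than every other lung, room air female 6 lay within the hyperoxia females, and the hyperoxia males held both the lowest lung and the third highest. The log2 fold change was -0.56 ± 0.30 (SE) in females, a fold of 0.677 with a 95% interval of 0.445 to 1.03 (adjusted p = 0.41), and 0.050 ± 0.29 in males (adjusted p = 1.00).

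*Vegfb*, a ligand of FLT1 (chr19:6982473-6987651, reverse strand), was among the least variable members. Its room air lungs had 15.3, 14.2 and 11.8 CPM in females 2, 5 and 6 and 15.6, 13.9 and 13.0 CPM in males 1, 4 and 5. Hyperoxia lungs had 14.1, 12.7 and 11.1 CPM in females 2, 4 and 5 and 16.2, 11.2 and 12.6 CPM in males 1, 2 and 3. The highest lung was 1.47 times the lowest, and the 4 groups overlapped throughout. For *Vegfb* the log2 fold change was -0.13 ± 0.16 in females (adjusted p = 0.70) and -0.078 ± 0.16 in males (adjusted p = 1.00).

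*Vegfc*, which drives lymphatic growth through FLT4 (chr8:54077606-54187096, forward strand), was the 1 member with an unadjusted p under 0.05 in females. Room air females 2, 5 and 6 had 14.1, 14.9 and 10.9 CPM, and hyperoxia females 2, 4 and 5 had 9.53, 9.07 and 11.6 CPM. Room air males 1, 4 and 5 had 9.46, 11.6 and 10.6 CPM, and hyperoxia males 1, 2 and 3 had 12.2, 11.4 and 12.3 CPM. In females 2 of the 3 hyperoxia lungs lay below all room air lungs, and female 5 after hyperoxia lay above room air female 6. The female log2 fold change was -0.40 ± 0.17, with an unadjusted p of 0.0211 and an adjusted p of 0.36 (edgeR), beside the 5.28% of all genes that were lower at such a p. The male value was 0.19 ± 0.17 (adjusted p = 1.00). With 92 to 235 counts per lung, 25.3% of them background if the reads on receptor genes are stray, it had the fewest counts of the 10.

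*Kdr*, the main signalling receptor for VEGF-A (chr5:75932827-75978458, reverse strand), had the lowest log2 fold change of the 10 members in males and with the sexes combined, and shared the lowest in females with *Vegfa*. Its levels in room air were 408, 390.0 and 244 CPM in females 2, 5 and 6 and 216, 351 and 272 CPM in males 1, 4 and 5. After hyperoxia they were 284, 213 and 209 CPM in females 2, 4 and 5 and 323, 166 and 256 CPM in males 1, 2 and 3. All 3 hyperoxia females lay below room air females 2 and 5, and female 2 after hyperoxia lay above room air female 6. The log2 fold change was -0.56 ± 0.28 in females (adjusted p = 0.405), -0.17 ± 0.28 in males (adjusted p = 1.00) and -0.37 ± 0.20 with the sexes combined (unadjusted p = 0.079, adjusted p = 0.93, edgeR). Its combined interval, 0.583 to 1.03 in fold, leaves room for a fall past the 1.5-fold threshold.

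*Flt1*, the high-affinity receptor with weak kinase activity (chr5:147561604-147726011, reverse strand), varied among the lungs much as *Vegfa* did. It had 234, 247 and 180.0 CPM in room air females 2, 5 and 6 and 198, 149 and 159.8 CPM in hyperoxia females 2, 4 and 5. Room air males 1, 4 and 5 had 135, 201 and 156 CPM, and hyperoxia males 1, 2 and 3 had 224, 126 and 188 CPM. The highest room air females again stood above the rest, and the male groups overlapped. *Flt1* gave a log2 fold change of -0.38 ± 0.25 in females (adjusted p = 0.47) and 0.13 ± 0.25 in males (adjusted p = 1.00).

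*Flt4*, in the adult chiefly a lymphatic receptor (chr11:49609263-49652739, forward strand), varied least of the 10 genes, by 1.44 times from the lowest to the highest lung. It had 87.2, 101 and 71.3 CPM in room air females 2, 5 and 6, 81.0, 76.9 and 73.2 CPM in hyperoxia females 2, 4 and 5, 70.3, 96.9 and 75.4 CPM in room air males 1, 4 and 5, and 85.6, 73.3 and 87.4 CPM in hyperoxia males 1, 2 and 3. In both sexes the hyperoxia lungs lay inside the range of the room air lungs. *Flt4* thus had a log2 fold change of -0.17 ± 0.19 in females (adjusted p = 0.67) and 0.022 ± 0.19 in males (adjusted p = 1.00).

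*Tek*, the angiopoietin receptor (chr4:94739289-94874976, forward strand), had a male estimate that rested on hyperoxia male 1, and it was the 1 member above 0 with the sexes combined. Room air females 2, 5 and 6 had 272, 268 and 175 CPM, and hyperoxia females 2, 4 and 5 had 247, 173 and 173 CPM. Room air males 1, 4 and 5 had 142, 214 and 181 CPM, and hyperoxia males 1, 2 and 3 had 308, 144 and 224 CPM. In males 2 of the 3 hyperoxia lungs lay above all room air lungs, and hyperoxia male 2 lay beside the lowest. The log2 fold change was -0.27 ± 0.27 in females (adjusted p = 0.63), 0.33 ± 0.28 in males (adjusted p = 1.00; 0.048 without hyperoxia male 1) and 0.032 ± 0.19 with the sexes combined (adjusted p = 0.99).

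Its partner *Tie1* (chr4:118471191-118490061, reverse strand) gave 185, 184 and 129.7 CPM in room air females 2, 5 and 6, 156, 117 and 114 CPM in hyperoxia females 2, 4 and 5, 109.7, 162 and 138 CPM in room air males 1, 4 and 5, and 195, 102 and 156 CPM in hyperoxia males 1, 2 and 3. In males the hyperoxia group held both the highest and the lowest lung. For *Tie1* the log2 fold change was -0.37 ± 0.25 in females (adjusted p = 0.48) and 0.14 ± 0.25 in males (adjusted p = 1.00).

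Of the angiopoietins, *Angpt1*, the agonist of TEK (chr15:42424723-42676977, reverse strand), had 76.9, 92.4 and 53.8 CPM in room air females 2, 5 and 6 and 72.0, 55.7 and 56.5 CPM in hyperoxia females 2, 4 and 5. It had 49.6, 64.9 and 60.6 CPM in room air males 1, 4 and 5 and 86.3, 51.4 and 73.1 CPM in hyperoxia males 1, 2 and 3. As for *Tek*, hyperoxia males 1 and 3 lay above all room air males and hyperoxia male 2 lay beside the lowest. *Angpt1* gave a log2 fold change of -0.28 ± 0.21 in females (adjusted p = 0.53) and 0.27 ± 0.21 in males (adjusted p = 1.00).

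*Angpt2*, the context-dependent antagonist that endothelial cells store and release (chr8:18690263-18741562, reverse strand), had 29.9, 24.6 and 24.9 CPM in room air females 2, 5 and 6 and 27.2, 20.7 and 21.2 CPM in hyperoxia females 2, 4 and 5. Room air males 1, 4 and 5 had 20.7, 24.9 and 19.6 CPM, and hyperoxia males 1, 2 and 3 had 26.8, 18.9 and 22.5 CPM. In both sexes the exposures overlapped. For *Angpt2* the log2 fold change was -0.20 ± 0.16 in females (adjusted p = 0.54) and 0.072 ± 0.16 in males (adjusted p = 1.00).

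The exposures overlapped for all 10 members in females, where 6.42% of all genes had every hyperoxia lung below every room air lung and 10.8% had every one above. They overlapped for all 10 in males as well, where these shares were 3.89% and 2.73%, and with the sexes combined, where they were 0.12% and 0.096%.

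The difference between the sexes in the response was tested as an interaction, the female minus the male log2 change. It was below 0 for all 10 members, with a median of -0.51 beside 0.12 for all genes (-0.30 without hyperoxia male 1). By edgeR 0 of 10 members were called, as were 0% of all genes, and DESeq2 called 0 members and 0 of 52666 genes. The lowest estimates were -0.61 ± 0.42 for *Vegfa* (adjusted p = 0.59), -0.60 ± 0.39 for *Tek* (adjusted p = 0.58) and -0.59 ± 0.23 for *Vegfc* (unadjusted p = 0.0178, adjusted p = 0.58), and *Vegfb* was at -0.053 ± 0.23. Without hyperoxia male 1 *Vegfa* was at -0.33 and *Tek* at -0.32, and without hyperoxia male 2 they were at -0.88 and -0.85. *Vegfc* was the 1 member with an unadjusted p under 0.05 by edgeR, and DESeq2 also had 1. At such a p 2.4% of all genes were lower and 6.06% higher by edgeR, and 7.39% were past it by DESeq2. Leaving out 1 lung at a time, edgeR gave 0 to 6 such members, with 6 without hyperoxia male 2. That fit called 0 of 46757 genes, and its share of all genes at such a p is not given here. In room air 9 of 10 members were higher in females, at a median log2 difference of 0.33 beside -0.10 for all genes, and 0 of 10 were called against 0.386% of all genes. By edgeR *Vegfc* was at 0.34 ± 0.16 (unadjusted p = 0.047, adjusted p = 0.39). It was the 1 member with an unadjusted p under 0.05, where 4.94% of all genes were higher and 7.75% lower in females, and DESeq2 had 3 such members, beside 11.4% of all genes, and called 0. For all 10 members females and males overlapped in room air, where 5.6% of genes had every female above every male and 10.4% every female below. After hyperoxia 9 of 10 were lower in females, at a median of -0.11 (0.092 without hyperoxia male 1), with 0 of 10 called against 0.696% of all genes and 0 under an unadjusted p of 0.05 by either tool, where by edgeR 3.59% of all genes were higher and 1.1% lower and by DESeq2 4.02% were past it. All 10 members overlapped between the sexes after hyperoxia too, where the shares of genes without overlap were 5.78% above and 3.09% below.

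The levels of most of the 10 genes moved together from lung to lung, as did those of many other genes. Over 12 lungs the 45 pairs of members had a median Pearson correlation of 0.809 in log2 CPM, from 0.151 for *Vegfb* with *Vegfc* to 0.978 for *Vegfa* with *Flt1*, and 23 pairs, 51.1%, were over 0.8. Over all pairs of genes with a mean of at least 5 CPM the median was 0.0175 and 6.65% were over 0.8. These points share the library, its depth and any stray reads. *Vegfa* also followed the receptor share, the share of counts on olfactory and vomeronasal receptor genes. Its log2 CPM correlated with the log2 receptor share at r = -0.945 and Spearman's rho = -0.972 over 12 lungs (permutation p = 1e-05 for each, two-sided, the smallest that 100000 permutations can give), and this was the only relation across lungs that was tested. Without room air female 5 and hyperoxia male 1, the lungs farthest from the median share, r was -0.954. Within the 6 hyperoxia lungs r was -0.949 and within the 6 room air lungs -0.972. No such correlation was formed for the other members or for all genes, so the relation cannot be called particular to *Vegfa*. The 2 lungs with the lowest shares were room air female 5 and hyperoxia male 1, which had the highest and the third highest *Vegfa*, and hyperoxia male 2 had the highest share and the lowest *Vegfa*.

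**Figure D2:**
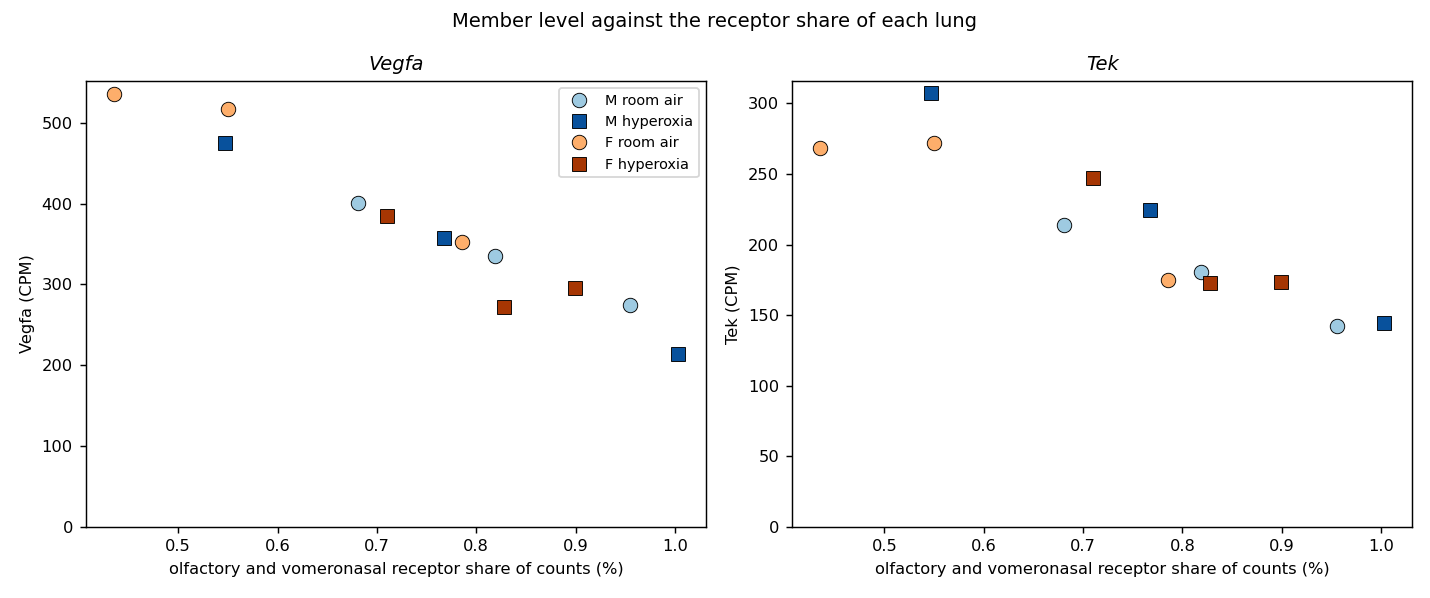
CPM of *Vegfa* (left) and *Tek* (right) in each lung on the vertical axis against the percentage of counts on olfactory and vomeronasal receptor genes on the horizontal axis; colours and symbols mark the 4 groups. *Vegfa* falls from 536 CPM at a share of 0.435% to 214 CPM at 1.003%.

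Adding the log2 receptor share to the edgeR fit moved the female estimates of all 10 members upward. The female log2 fold change became -0.034 ± 0.11 for *Vegfa* and -0.022 ± 0.11 for *Kdr*. *Vegfc* stayed lower, at -0.25 ± 0.17 (unadjusted p = 0.145, edgeR). *Tek* turned to 0.27 ± 0.11 and *Angpt1* to 0.19 ± 0.11, and *Vegfb*, *Flt1*, *Flt4* and *Tie1* also lay above 0. The median of the members was 0.050 in females, 0.015 in males, 0.014 with the sexes combined and 0.081 for the interaction. For females against males it was -0.12 in room air, where it had been 0.33, and -0.028 after hyperoxia. By edgeR 0 members were called in this fit, against 21 of 45828 genes in females, 6 in males and 17 with the sexes combined. At an unadjusted p under 0.05 were 5.5% of all genes in females, 6.27% in males and 7.37% with the sexes combined. The members at such a p were 1 in females, 1 in males and 3 with the sexes combined. Those of the combined sexes were *Tek* at 0.22 ± 0.070 (unadjusted p = 0.0027, adjusted p = 0.24, edgeR), *Angpt1* at 0.17 ± 0.066 (unadjusted p = 0.0136, adjusted p = 0.46) and *Kdr* at -0.17 ± 0.071 (unadjusted p = 0.0212, adjusted p = 0.53). How far the receptor share sets the levels, and how far both follow something else in these lungs, was not tested. Whether the receptor share is itself part of the response to hyperoxia was not tested either.

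**Figure D3:**
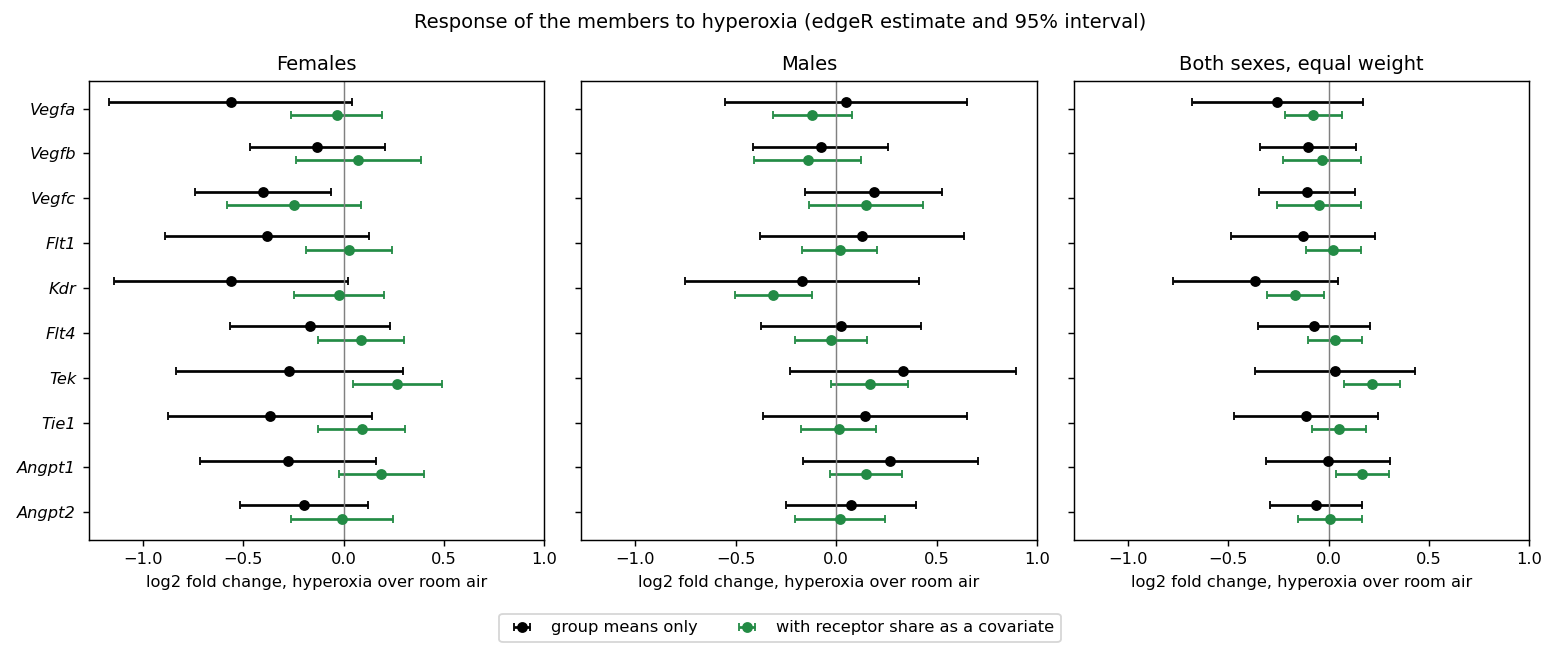
Log2 fold change of hyperoxia over room air (horizontal axis) for each member in females, males and both sexes at equal weight; points are edgeR estimates and bars 95% intervals, in black from the group means alone and in green after adding the receptor share. The female estimates for *Vegfa* and *Kdr* lie at -0.56 in black and near 0 in green, and *Tek* and *Angpt1* lie above 0 in green in all 3 panels.

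Another correction gave other values. With 1 factor of unwanted variation estimated from the residuals of the fit (RUVr, a step the study's methods name), the female estimates stayed near those of the group means and their errors shrank. This follows from the method. The factor is taken from what the group means leave over, so it takes up spread within groups and hardly moves the estimates. The small p-values of this fit rest on that step. There 7 of 10 members were lower in females at an adjusted p under 0.05, where 11.1% of all genes were lower and 5.64% higher, among them *Vegfa* at -0.55 (adjusted p = 9.3e-08, edgeR) and *Kdr* at -0.54 (adjusted p = 2.3e-07). With the sexes combined 2 members were, *Kdr* at -0.37 (adjusted p = 2.3e-06) and *Vegfa* at -0.28 (adjusted p = 2.1e-04), against 4.04% of all genes lower, and in males 0 were, beside 0.0415% lower and 0.105% higher. The lowest fold in that female fit was 0.682, which is short of a 1.5-fold change, so 0 members were called there too. With this factor 1898 of 45828 genes were called in females, 16 in males and 92 with the sexes combined. For the interaction 2102 were called, and for females against males in room air 2274. At the adjusted p alone 7 members were lower in the interaction, beside 7.91% of all genes lower and 3.8% higher, and 7 were higher in females in room air, beside 10.5% higher and 5.85% lower. Both corrections were fitted to the same 12 lungs. The female values of *Vegfa* and *Kdr* were -0.55 and -0.54 with RUVr, which by its construction stays near the group means. They were near 0 with the receptor share.

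Ratios of 2 members within a lung do not depend on the scaling of libraries. They were formed for all 45 pairs, and those described here were chosen after their values had been seen, so they are given as a description with no test. In 5 of 45 pairs the 6 hyperoxia lungs did not overlap the 6 room air lungs, where 0.463% of all pairs of genes with a mean of at least 5 CPM were of this kind. These were *Vegfa* to *Tek*, *Vegfa* to *Angpt1*, *Kdr* to *Tek*, *Kdr* to *Tie1* and *Kdr* to *Angpt1*, and in each the gene named first was lower relative to the second after hyperoxia. The pairs share genes and libraries and are not independent.

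*Tek* relative to *Kdr* was higher in every hyperoxia lung than in every room air lung. The ratio of raw counts was 0.870, 0.811 and 0.831 in hyperoxia females 2, 4 and 5 and 0.952, 0.871 and 0.877 in hyperoxia males 1, 2 and 3. In room air it was 0.667, 0.688 and 0.717 in females 2, 5 and 6 and 0.659, 0.611 and 0.665 in males 1, 4 and 5. The mean was 0.869 ± 0.0487 over the 6 hyperoxia lungs and 0.668 ± 0.0350 over the 6 room air lungs (SD), and in log2 the difference was 0.38 in all, 0.28 in females and 0.48 in males. Hyperoxia male 1, with a low receptor share, and hyperoxia male 2, with the highest, lay on the same side of the gap.

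*Angpt1* relative to *Kdr* behaved alike. It was 0.253, 0.262 and 0.271 in hyperoxia females 2, 4 and 5 and 0.267, 0.310 and 0.286 in hyperoxia males 1, 2 and 3, against 0.189, 0.237 and 0.220 in room air females 2, 5 and 6 and 0.230, 0.185 and 0.223 in room air males 1, 4 and 5. The means were 0.275 ± 0.0205 and 0.214 ± 0.0219 (SD, n = 6 each), a log2 difference of 0.37. With *Vegfa* in place of *Kdr*, the log2 difference after hyperoxia was -0.29 for *Vegfa* to *Tek* and -0.28 for *Vegfa* to *Angpt1*. *Tek* to *Angpt1*, receptor to ligand, differed by 0.014 and *Vegfa* to *Kdr*, ligand to receptor, by 0.087, and both overlapped.

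Read from *Kdr*, all 9 other members were higher relative to it after hyperoxia, and 3 of them, *Tek*, *Tie1* and *Angpt1*, without overlap. Of 21396 other genes at a mean of at least 5 CPM, 1.84% were higher relative to *Kdr* in every hyperoxia lung and 0% were lower in every one. Read from *Tek*, 1.05% of the same number of genes were lower relative to it in every hyperoxia lung and 0% were higher. Taking off the receptor gene density from both counts left the same number of pairs without overlap, 5, with log2 differences of 0.40 for *Tek* to *Kdr* and 0.37 for *Angpt1* to *Kdr*.

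**Figure D4:**
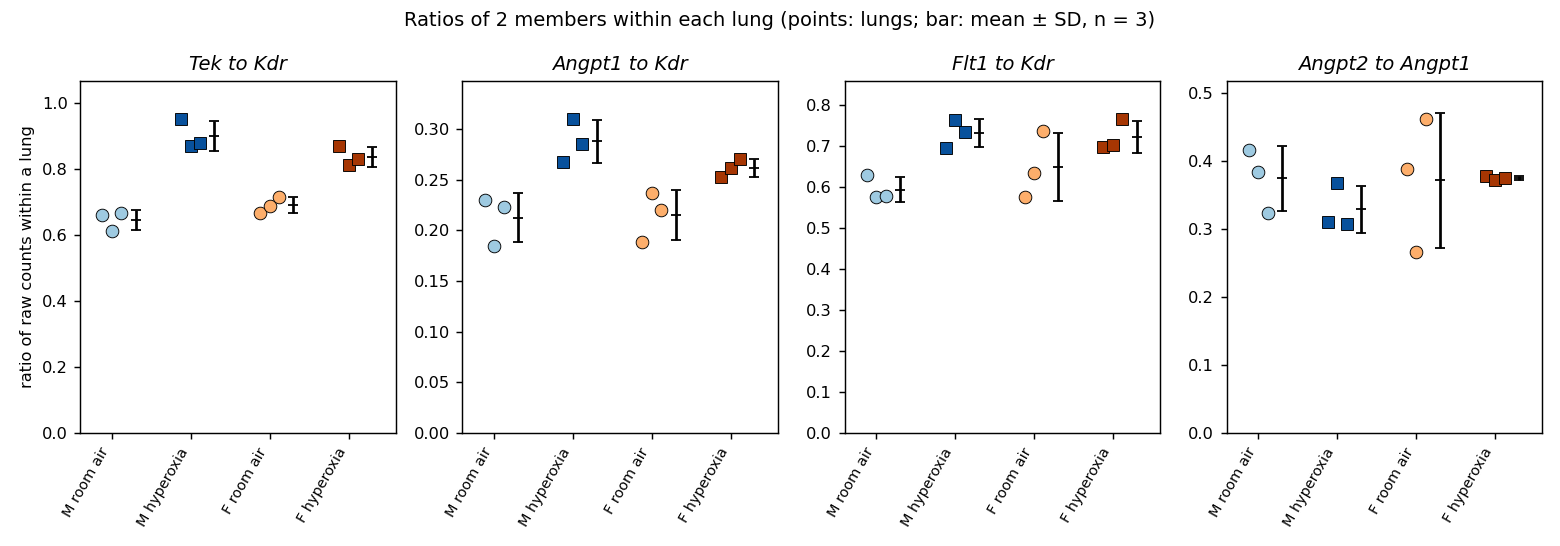
Ratio of raw counts of 2 members within each lung (vertical axis) by group; points are lungs and bars the mean ± SD of 3 lungs. *Tek* to *Kdr* lies at 0.811 to 0.952 after hyperoxia and 0.611 to 0.717 in room air, whereas *Flt1* to *Kdr* and *Angpt2* to *Angpt1* overlap between exposures.

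**Figure D5:**
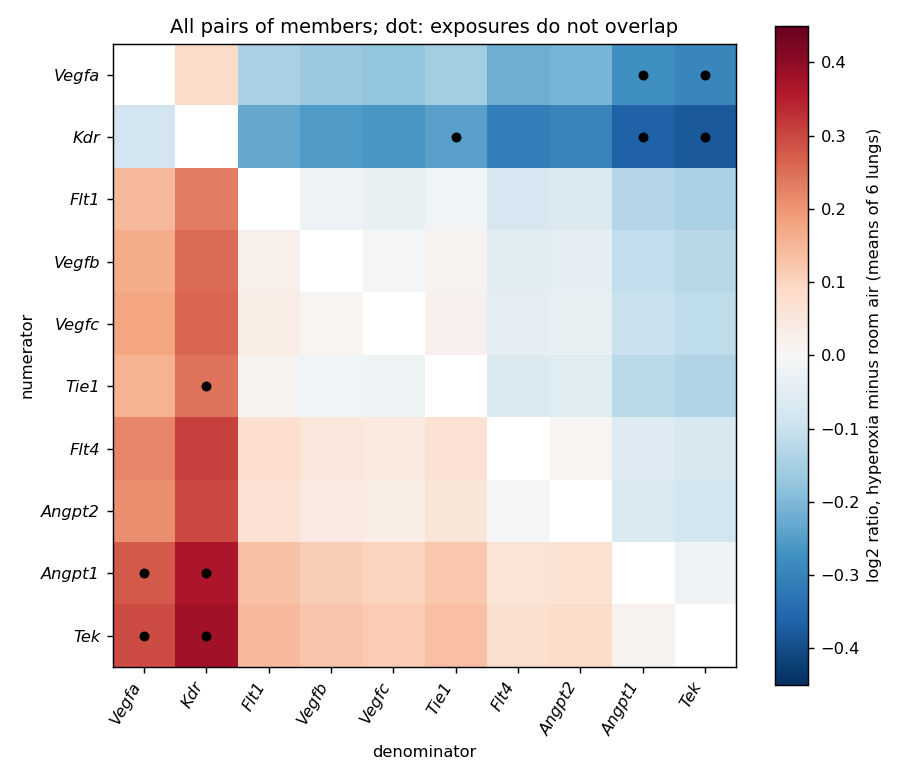
Difference in the mean log2 ratio between the 6 hyperoxia and the 6 room air lungs for every pair of members, with the numerator in the row and the denominator in the column; blue is lower after hyperoxia, red higher, and a dot marks pairs whose exposures do not overlap. *Kdr* and *Vegfa* are lower against *Tek* and *Angpt1*, with the lowest value, -0.38, for *Kdr* to *Tek*.

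Several ratios are usually read as balances within these systems, and with the sexes combined each of them overlapped between exposures. *Angpt2* to *Angpt1*, the antagonist to the agonist, was 0.352 ± 0.0333 after hyperoxia and 0.374 ± 0.0697 in room air (SD, n = 6 each). *Flt1* to *Kdr*, the decoy-like to the signalling receptor, was 0.726 ± 0.0330 after hyperoxia and 0.620 ± 0.0632 in room air, with 5 of 6 room air lungs below all hyperoxia lungs. In males alone, where 6.68% of all pairs of genes did not overlap, neither did it, at 0.695 to 0.763 after hyperoxia and 0.574 to 0.627 in room air. *Tek* to *Tie1* was 1.502 ± 0.0729 after hyperoxia and 1.366 ± 0.0780 in room air, and it overlapped in neither sex alone, as was so for 20.2% of all pairs of genes in females and 6.68% in males. It ran from 1.475 to 1.59 against 1.35 to 1.471 in females and from 1.413 to 1.578 against 1.296 to 1.32 in males. For the ligands the values were, in the same order, *Vegfa* to *Vegfb* 25.3 ± 4.11 and 28.9 ± 6.91, and *Vegfa* to *Vegfc* 30.4 ± 8.20 and 33.4 ± 2.91. In females alone, where 20.2% of all pairs of genes did not overlap, neither did *Vegfa* to *Vegfb*. It ran from 21.4 to 27.31 after hyperoxia and from 29.75 to 37.58 in room air. In males it overlapped, at 19.05 to 29.21 and 17.57 to 28.81.

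The cells that carry the receptors were looked at next to these ratios. Of 14 general endothelial markers 13 were lower with the sexes combined, at a median log2 fold change of -0.18 (-0.37 in females and 0.080 in males), and 0 were called by edgeR, with 1 at an unadjusted p under 0.05, *Cldn5*, a tight junction gene, at -0.36. Against the summed counts of these 14 markers, *Tek* was higher after hyperoxia by 0.22 in log2, *Angpt1* by 0.20 and *Kdr* was lower by 0.16, and for each the exposures overlapped. The ratio of aerocyte to general capillary markers, the 2 capillary cell types of the alveolus, had a mean of 1.67 ± 0.151 after hyperoxia and 1.74 ± 0.0973 in room air (SD, 6 lungs each) and overlapped. The ratio of 8 pericyte markers to the endothelial markers was 0.160 to 0.193 after hyperoxia and 0.131 to 0.183 in room air. Only room air male 1, at 0.183, overlapped, and the other 5 room air lungs lay below every hyperoxia lung. Red cell genes also differed between the exposures: all 5 were lower after hyperoxia with the sexes combined, 3 of them called (*Hba-a2*, *Hbb-bt* and *Alas2*, where 0.0415% of all genes were), and their summed level was 5118 to 7881 CPM in room air and 1247 to 4650 CPM after hyperoxia. Of 6 heart muscle genes 5 were lower at an unadjusted p under 0.05 with the sexes combined, where 2.52% of all genes were, and their sum ran from 105 to 237 CPM in room air and from 106.5 to 136 CPM after hyperoxia. Skeletal muscle genes, at a median of -0.77, summed to as much as 1071 CPM in a room air male and to at most 70.6 CPM in the other 3 groups. With the sexes combined 0 of 6 had an unadjusted p under 0.05 by edgeR. In males *Acta1*, *Ckm* and *Tnnt3* had one, all lower, and in females *Pvalb* had one, higher at 0.59. The part of any of these cell types in the ratios was not tested.

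Promoter sequences of *Kdr* and *Tek* are shown because these 2 receptors moved apart. Both are from RefSeq in build GRCm38.p6 and span the start of the gene, with most of the window upstream. The core of the ETS family site, AGGAA on either strand, is in capitals.

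*Kdr*, chr5:75978406-75978705, reverse strand: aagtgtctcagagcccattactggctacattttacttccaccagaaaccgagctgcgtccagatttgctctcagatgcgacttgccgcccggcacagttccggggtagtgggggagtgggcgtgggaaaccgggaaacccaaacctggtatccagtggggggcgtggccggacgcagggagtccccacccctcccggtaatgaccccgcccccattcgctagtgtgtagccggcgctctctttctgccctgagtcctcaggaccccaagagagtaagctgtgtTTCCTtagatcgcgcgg
*Tek*, chr4:94739039-94739338, forward strand: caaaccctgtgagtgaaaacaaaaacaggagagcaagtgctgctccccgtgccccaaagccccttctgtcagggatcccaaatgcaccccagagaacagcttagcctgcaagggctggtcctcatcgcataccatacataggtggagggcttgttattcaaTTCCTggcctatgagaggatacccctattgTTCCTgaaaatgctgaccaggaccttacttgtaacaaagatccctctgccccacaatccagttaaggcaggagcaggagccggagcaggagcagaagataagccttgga

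The ETS core occurred 1 time in the *Kdr* window and 2 times in the *Tek* window, both as its reverse complement TTCCT, and 66.7% of 32851 mouse promoters hold it. The core of the hypoxia response element, ACGTG on either strand, was in neither, and 19.6% of promoters hold it. RefSeq promoters were found for 8 of the 10 members.

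Other genes of the pathways were read from lists made with earlier results of these data known, and by edgeR 0 of them were called. Of 9 further ligands, co-receptors and processing factors 7 were higher and 2 lower with the sexes combined, at a median log2 fold change of 0.047 beside 0.031 for all genes, and 0 had an unadjusted p under 0.05. The ends of this list were *Angpt4*, another TEK ligand, at 0.16 ± 0.12 (SE), *Ccbe1*, needed for VEGF-C processing, at 0.093 ± 0.11, *Svep1*, an extracellular matrix protein of lymphatic vessels, at -0.13 ± 0.17 and *Nrp1*, the co-receptor of KDR, at -0.17 ± 0.20. Of 30 genes that signal below the receptors 4 were higher and 26 lower, with a median of -0.12. Of these, 1 had an unadjusted p under 0.05. It was *Klf2*, a transcription factor of quiescent endothelium induced by flow, at -0.59 ± 0.19 (adjusted p = 0.83, edgeR). The next lowest was *Cdh5*, the VE-cadherin gene, at -0.24 ± 0.22, and the highest were the kinase *Prkca* at 0.099 ± 0.15 and the adaptor *Sh2d2a* at 0.092 ± 0.10.

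Of 10 regulators of *Vegfa* transcription 3 were higher and 7 lower, with a median of -0.10. *Hif3a*, a hypoxia-inducible factor subunit, was at 0.31 ± 0.13 (unadjusted p = 0.029, adjusted p = 0.93, edgeR), and the nuclear receptor *Esrra* followed at 0.068 ± 0.10. *Hif1a*, the main oxygen-regulated subunit, was at -0.20 ± 0.15 and *Egln1*, the prolyl hydroxylase that marks it for decay, at -0.18 ± 0.13. *Vegfa* itself was at -0.26 ± 0.21 in the same contrast, with -0.40 when hyperoxia male 1 was left out, -0.13 when hyperoxia male 2 was, and -0.076 with the receptor share in the fit.

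Of 16 genes that respond to VEGF or mark sprouting 4 were higher and 12 lower, with a median of -0.080, and 4 had an unadjusted p under 0.05, all lower, where 2.52% of all genes were. *Apln*, the apelin peptide made by sprouting and aerocyte endothelium, had the smallest p, at -0.57 ± 0.14 (unadjusted p = 4.2e-04, adjusted p = 0.34, edgeR). Its log2 fold change was -0.65 in females and -0.48 in males. *Nr4a1*, an immediate early gene downstream of KDR, was at -0.62 ± 0.27, *Nrarp*, a Notch target, at -0.44 ± 0.18 and *Rcan1*, a calcineurin target induced by VEGF, at -0.33 ± 0.12 (adjusted p = 0.93 for each, edgeR). The highest were *Esm1*, a tip cell gene, at 0.19 ± 0.14 and *Hey1*, a Notch target, at 0.15 ± 0.15.

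The genes whose log2 CPM followed each member most closely over 12 lungs were found among 21396 genes. For *Vegfa* they were *Tln1*, *Asap1* and *Arid1a* (r from 0.994 to 0.996), for *Kdr* *Itpkb*, *Inpp5a* and *Tspan13* (0.986 to 0.988), for *Flt1* *Ctnna1*, *Mia3* and *Lrrc58* (0.993) and for *Tie1* *Ehd4*, *Tjp1* and *Ube2e3* (0.991 to 0.993). *Tek* was followed by *Tmem87b*, *Notch3* and *Prex2* (0.989 to 0.993) and *Angpt1* by *D230025D16Rik*, *Nfx1* and *Mrpl24* (0.983 to 0.989). The likeness was lower for the members with few counts or little spread: at best 0.966 for *Flt4* (*Pcdhga7*), 0.945 for *Vegfb* (*Mir100hg*), 0.941 for *Vegfc* (*Pgls*) and 0.930 for *Angpt2* (*Mier3*). These values are descriptions over lungs that share library effects.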

How the data were processed

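The authors used Trim Galore for trimming and STAR for alignment to mm10 (GRCm38), and deposited raw counts per gene from featureCounts. Tool versions, annotation release and strand setting are not given in the sources used here. The methods name the QIAseq Stranded kit, whereas the labels name NEBNext Ultra II Directional with rRNA depletion. Pups of several litters were pooled and redistributed between exposures. The labels number each animal but do not give its litter, so p-values measure the spread between these lungs.

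Counts of the 4 groups were fitted with edgeR 4.0.16 (R 4.3.3, robust quasi-likelihood, upper-quartile normalization, filterByExpr). This fit has neither RUVr, whose number of factors is not stated, nor ComBat-seq, which the methods name for batch normalization with no batch given. Wild-type lungs were not analysed here. Exon lengths came from GENCODE vM21. In pairs of lungs of a group, counts differed beyond sampling noise (chi-square per degree of freedom 3.17 to 101). Alternatives were TMM, DESeq2 1.42.0, other filters, RUVr with 1 factor, the receptor share as a further term, fits to the 6 compared libraries alone, a replicate block, adjusted p alone, and each lung left out. Further alternatives were added after seeing the data: background subtraction, the 3 lungs of lowest receptor share left out, and RUVr with the adjusted p alone. The fit was tested on simulated data. Figures were drawn with matplotlib 3.10.9. No molecular identifiers are described, so the floor of 3 counts covers counting error only.

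The members, lists and displayed ratios were chosen with earlier results of these data known. All 10 members are named. Genes of the pathway lists are named where they were among the 2 largest rises or falls of their list with the sexes combined, or had an unadjusted p under 0.05 there.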

Additional observations from a re-analysis of the deposited data

Results flagged for a closer look

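The ratio of *Flt1* to *Kdr* in the 6 room air lungs had 1 lung far from the others. Room air female 6 stood at 0.736, while the other 5 lay between 0.573 and 0.633, a gap of 0.637 of the whole range, over Dixon's 95% critical value for 6 lungs. The other 5 room air lungs all lay below the hyperoxia lungs, which began at 0.695. This was 1 of 34 groups of values examined, and chance picks about 1 in 20. Room air female 6 had a receptor share of 0.786%, the highest of the room air females.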

How the results depend on the processing

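In each of the 6 comparisons, 0 members were called under every alternative that kept the 1.5-fold threshold and under the adjusted p alone in the fit of the group means. RUVr with 1 factor together with the adjusted p alone, chosen after seeing the data, passed 7 members in females, 2 with the sexes combined, 7 for the interaction and 7 for females against males in room air. The cause was not tested.

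Signs of uncalled log2 values turned under several alternatives. With the receptor share as a covariate, in females *Vegfb* became 0.074, *Flt1* 0.027, *Flt4* 0.087, *Tek* 0.27, *Tie1* 0.090 and *Angpt1* 0.19. In males *Vegfa* became -0.12 and *Flt4* -0.026, and with the sexes combined *Flt1* 0.022, *Flt4* 0.031, *Tie1* 0.051, *Angpt1* 0.17 and *Angpt2* 0.0054. The interaction became 0.084 for *Vegfa*, 0.22 for *Vegfb*, 0.0094 for *Flt1*, 0.29 for *Kdr*, 0.11 for *Flt4*, 0.099 for *Tek*, 0.078 for *Tie1* and 0.040 for *Angpt1*, and the members' median for females against males in room air turned from 0.33 to -0.12. With background subtracted (added after seeing the data), *Vegfb* became 0.031 and *Flt4* 0.013 in females, *Vegfa* -0.049 and *Flt4* -0.017 in males, *Angpt1* 0.074 with the sexes combined, and *Vegfb* 0.21 and *Flt4* 0.030 for the interaction. Without the 3 lungs of lowest receptor share (also added), which leaves room air female 6 as the only female control, the combined values were 0.036 for *Vegfc*, 0.056 for *Flt4* and 0.15 for *Angpt1*. A minimum of 10 counts in every library gave 0.029 for *Angpt1* combined and 0.030 for the *Vegfb* interaction, RUVr 0.00013 for *Angpt1* combined and DESeq2 -0.0060 for *Tek* combined.

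Leaving out 1 lung at a time turned signs in males, where *Vegfa* ran from -0.23 to 0.31, *Vegfb* from -0.24 to 0.037, *Flt1* from -0.061 to 0.33, *Kdr* from -0.40 to 0.059, *Flt4* from -0.066 to 0.18, *Tie1* from -0.078 to 0.37 and *Angpt2* from -0.058 to 0.19. Hyperoxia male 1 turned *Vegfa*, *Flt1*, *Flt4*, *Tie1* and *Angpt2*, hyperoxia male 2 turned *Vegfb* and *Kdr*, hyperoxia male 3 and room air male 5 turned *Flt4*, room air male 1 turned *Vegfa*, *Vegfb* and *Flt4*, and room air male 4 turned *Kdr*. Combined, *Flt4* ran from -0.14 to 0.0059, *Tek* from -0.11 to 0.15 and *Angpt1* from -0.097 to 0.092, the median of females against males after hyperoxia ran from -0.30 to 0.092 (without hyperoxia males 2 and 1), male *Tek* from 0.048 to 0.58 and male *Angpt1* from 0.10 to 0.46, and the *Vegfb* interaction ran from -0.17 to 0.11. In females every sign held and the median ran from -0.49 (without room air female 6) to -0.25, but 5 sizes moved by over 1.5 times: *Tek* ran from -0.47 to -0.16, *Angpt2* from -0.34 to -0.098, *Angpt1* ran from -0.47 to -0.091, *Flt4* from -0.30 to -0.042 and *Vegfb* from -0.23 to -0.041. By edgeR 0 to 4 members had an unadjusted p under 0.05, with 4 when room air female 6 was left out. That fit also called 206 of 46780 genes, and 0 members. The shares of all genes at an unadjusted p under 0.05 are not given for fits with 1 lung left out, so these counts have no background. The log2 difference in *Tek* to *Kdr* ran from 0.36 to 0.39 and in *Angpt1* to *Kdr* from 0.32 to 0.40.

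Animal numbers shared between exposures did not pair the lungs: deviations from the group means correlated at 0.189 for females 2, -0.330 for females 5 and -0.491 for males 1. With the number as a replicate block 0 members were called in females and 0 with the sexes combined, and *Angpt2* combined became 0.0088. The 3 lungs of a group limit the precision: the combined standard errors of 0.11 to 0.21 leave folds near 1.5 within the intervals of *Kdr* and *Vegfa*.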
